A study of Mus musculus with 10 samples.

Results

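The proteasome genes described here are 48 genes that encode subunits of the proteasome, its regulators and factors that assemble it. They were taken as a list of symbols and found in the count table through their Ensembl identifiers. All 48 were among the 51789 genes of the table, and all 48 passed the filter on low counts, which left 15232 genes for testing. They were measured in cardiomyocytes isolated on day 4 after myocardial infarction (MI) from 5 TgGRK5 mice, which carry a cardiomyocyte-specific GRK5 transgene, and from 5 non-transgenic littermate control (NLC) mice. The 2 groups are named TgGRK5-MI and NLC-MI, and each library came from 1 mouse. Both groups had undergone MI by surgery, no sham-operated libraries were analysed here, and the promoter of the transgene is not given in the sources used here. The study used young adult mice of both sexes, and the labels give no age for the sequenced animals.

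The proteasome is the main protease for the regulated breakdown of proteins in the cytosol and nucleus. Its 20S core is a barrel of alpha rings, which gate the entry, around beta rings, which hold the catalytic sites. The 19S regulator binds the ends of the barrel, where its non-ATPase subunits recognise ubiquitin chains and its ATPases unfold the substrate and thread it into the core. Cells exposed to interferon exchange the catalytic subunits for inducible ones and so build the immunoproteasome, which shapes the peptides shown on MHC class I. In cardiac muscle the ubiquitin-proteasome system turns over sarcomeric proteins, which are tagged by muscle-specific ubiquitin ligases.

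The libraries held from 7968779 counts (NLC-MI 3) to 23381527 counts (NLC-MI 2), and the lowest depths after that were 9114469 counts in TgGRK5-MI 4 and 12833652 counts in TgGRK5-MI 3. Grk5, which checks the labels, lay between 46.5 and 73.1 CPM (counts scaled to the size of the library with TMM factors) in NLC-MI and between 552.4 and 1700.4 CPM in TgGRK5-MI. The summed level of 6 cardiomyocyte markers was 4.135e+04 to 1.059e+05 CPM in NLC-MI and 4.461e+04 to 8.683e+04 CPM in TgGRK5-MI. The 12 leukocyte markers summed to 590.8 to 1836 CPM and 992.7 to 2048 CPM, so RNA of other cells was present in both groups. Of these 12, 11 could be tested, 10 of them had a positive log2 fold change in TgGRK5-MI, and none had an unadjusted p under 0.05. Because the libraries are bulk samples, fewer cells of a type and less RNA per cell cannot be told apart.

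The part of the RNA made up by proteasome transcripts overlapped between the groups. The 48 genes took between 0.456% and 0.567% of all counts in a library. Their summed level was 5001 ± 562 CPM (SD, n = 5) in NLC-MI, with a range of 4459 to 5897, and 5099 ± 467 CPM (SD, n = 5) in TgGRK5-MI, with a range of 4495 to 5584, so the groups overlapped over most of their range. Counts of a single gene ranged from 48 to 7735 in a library, well above the floor of 3 counts, which was worth 0.121 to 0.393 CPM.

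Levels differed widely between the genes. Levels of different genes were compared per length, as TPM (counts divided by the merged exon length of each gene and scaled to a fixed total per library). Psmb5, the catalytic subunit with chymotrypsin-like activity, had the highest mean over the libraries, at 325 TPM. The ATPases Psmc3 and Psmc1 followed at 274 and 261 TPM, with the beta subunit Psmb2 at 265 TPM between them. The lowest means were those of the inducible subunit Psmb9 (7.99 TPM), the 19S assembly chaperones Psmd9 (9.10 TPM) and Psmd5 (11 TPM), the 20S assembly chaperone Psmg3 (9.41 TPM) and the inhibitor Psmf1 (10.1 TPM). By role, the median level was 210 TPM for the 20S beta ring, 196 TPM for the 19S ATPases, 115 TPM for the 20S alpha ring and 80.3 TPM for the 19S non-ATPases. The assembly factors stood below the subunits that they help to join, with medians of 43.4 TPM for the 20S core and 11 TPM for the 19S regulator. Spread over libraries was such that neighbours in this order, such as Psmc3, Psmb2 and Psmc1, had overlapping values. The order of genes and roles also rests on the merged exon lengths. Psmb5 had 899 bases, while Psme4, with 8382 bases and a mean of 102 TPM, had a higher CPM than Psmb5 in every library. Among the lowest genes, Psmd9 and Psmd5 had 7248 and 7230 bases. The order was not computed with other lengths.

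**Figure D1:**
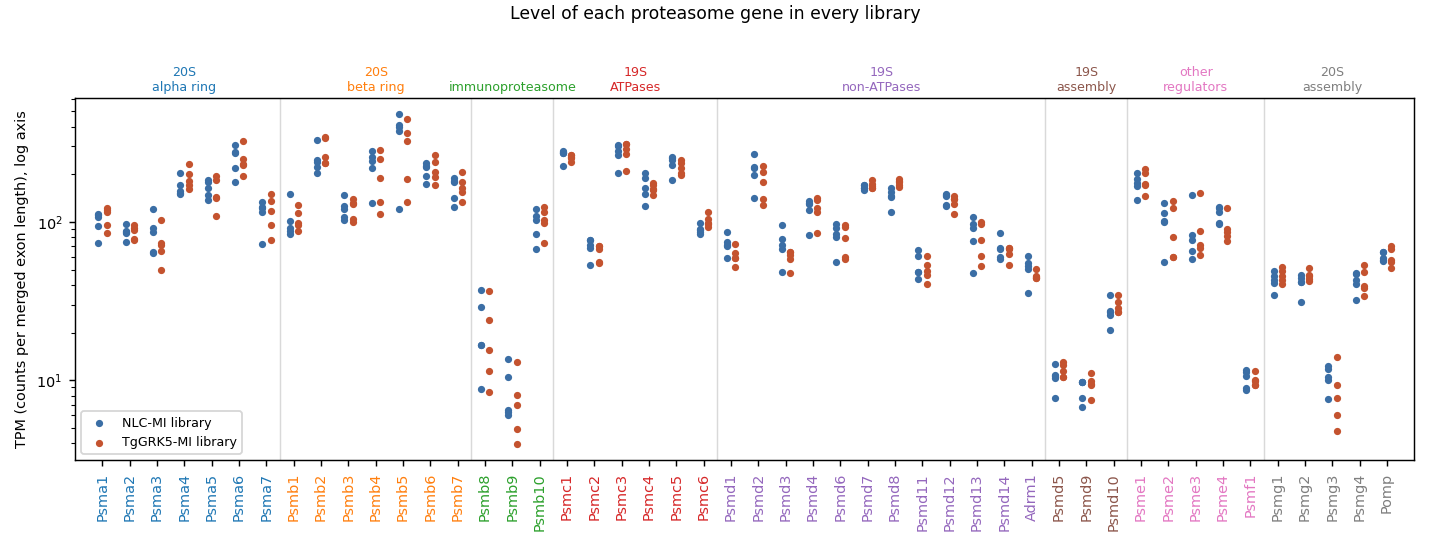
Level of the 48 proteasome genes in each library, as TPM on a log axis, with 1 point per library and the genes grouped by role. The 20S and 19S subunits lie mostly above the inducible subunits Psmb8 and Psmb9 and the assembly factors, and the points of the groups overlap for nearly every gene.

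The main comparison asked whether proteasome genes differed between TgGRK5-MI and NLC-MI. One gene of the 48, Psmd8, was higher in TgGRK5-MI at an unadjusted p under 0.05 (edgeR's quasi-likelihood test), which is 2.08% of the genes, beside 1.77% of all genes tested (higher in TgGRK5-MI). None was lower at that threshold, beside 2.08% of all genes. In either direction this was 1 of 48, beside 3.85% of all genes. No gene of the 48 reached an adjusted p under 0.10, which 12 of the 15232 genes (0.0788%) did, and the smallest adjusted p among them was 0.924. These shares from edgeR are close to the background. DESeq2 gave 1 of the 48 genes (2.08%), Psmd8, an adjusted p under 0.10 (0.0629), beside 0.397% of the genes that it adjusted. By limma-voom with quality weights 7 of the 48 were higher at an unadjusted p under 0.05 (Psma1, Psma4, Psmc6, Psmd5, Psmd8, Psmg1 and Psmg2). That is a larger share than the 7.47% of all genes in that direction, and none of the 48 had an adjusted p under 0.10 in that fit.

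Differences were small in both directions. The log2 fold change (TgGRK5-MI minus NLC-MI) was positive for 29 genes and negative for 19, with a median of 0.06 over the 48 genes and 0.00 over all genes tested. It ran from -0.24 for Psmg3 to 0.38 for Psmd8, and its median size was 0.10, beside 0.15 for all genes tested. For 43 of the 48 genes the change was smaller than the spread between libraries of the same group. That spread (pooled SD of log2 CPM) ran from 0.10 to 0.73 with a median of 0.28. The precision sets a bound on what could have been missed. For 47 of the 48 genes the 95% interval of the change lay within a 2-fold change in either direction, and for 34 it lay within a 1.5-fold change. The exception at 2-fold was Psmb5, whose interval ran from -1.01 to 0.56 on the log2 scale.

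**Figure D2:**
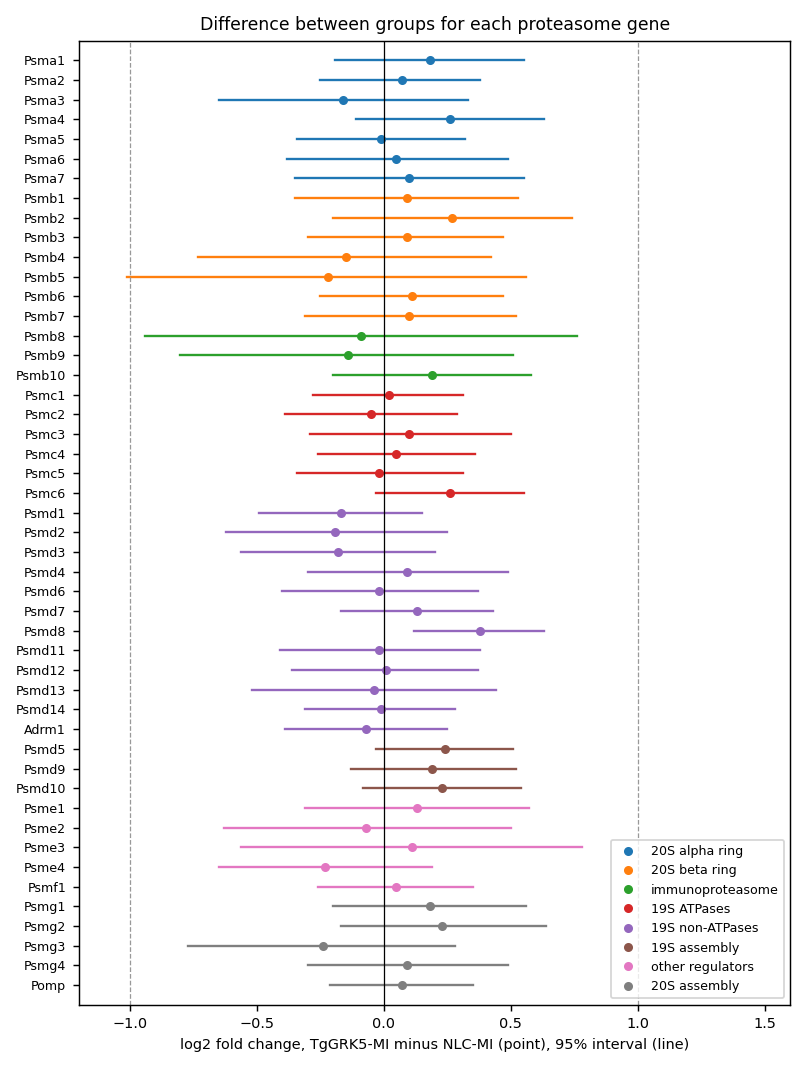
Log2 fold change of each proteasome gene between TgGRK5-MI and NLC-MI (points) with its 95% interval (lines), coloured by role, and dashed lines at a 2-fold change. The interval of Psmd8, from 0.12 to 0.63, is the only one that leaves out 0, and only that of Psmb5 crosses a dashed line.

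Psmd8 (ENSMUSG00000030591, chromosome 7 from 29174188 to 29180701, minus strand, GRCm38) encodes a non-ATPase subunit of the 19S lid. It measured 155.5, 143.5, 157.4, 141.8 and 141.3 CPM in NLC-MI 1 to 5, and 183.0, 185.4, 220.8, 187.2 and 183.7 CPM in TgGRK5-MI 1 to 5. Every TgGRK5-MI library was above every NLC-MI library, with TgGRK5-MI 3 the highest and a gap between the groups wider than the spread within NLC-MI. It was the only gene of the 48 whose groups did not overlap, beside 1.00% of all genes tested. The level was 1.3-fold (95% interval 1.09 to 1.55) that of NLC-MI, with a log2 fold change of 0.38 (SE 0.12). By edgeR's quasi-likelihood test the unadjusted p was 0.00756 and the adjusted p 0.924. A two-sided exact permutation of the libraries gave p = 0.00794, the smallest value that 5 against 5 can reach. Without TgGRK5-MI 3 the log2 fold change was 0.31, and in the 7 libraries with the most counts it was 0.33 with an unadjusted p of 0.0282. Psmd8 shared no near-identical copy or overlapping exon with another annotated gene.

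Psmc6 and Psmd5 were the genes with the next smallest p-values. Psmc6, an ATPase of the 19S base, measured 107.3, 93.0, 102.5, 100 and 125.7 CPM in NLC-MI 1 to 5, and 115.9, 110.3, 136.9, 124.2 and 146.6 CPM in TgGRK5-MI 1 to 5. The groups overlapped through NLC-MI 5, which was above 3 of the 5 TgGRK5-MI libraries. Its log2 fold change was 0.26 (SE 0.13, unadjusted p = 0.0724 by edgeR, exact permutation p = 0.0476). Psmd5, a chaperone of the 19S base, measured 28.1, 23.0, 27.3, 24.8 and 22.3 CPM in NLC-MI 1 to 5, and 30.5, 30.5, 31.7, 28.1 and 27.5 CPM in TgGRK5-MI 1 to 5. Only NLC-MI 1 reached into the range of the transgenic libraries. The log2 fold change of Psmd5 was 0.24 (SE 0.12, unadjusted p = 0.0747 by edgeR, exact permutation p = 0.0238). Of the 48 genes, 3 (6.25%) had an exact permutation p under 0.05, beside 4.38% of all genes tested. All 3 were higher in TgGRK5-MI, the direction of 2.33% of all genes.

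**Figure D3:**
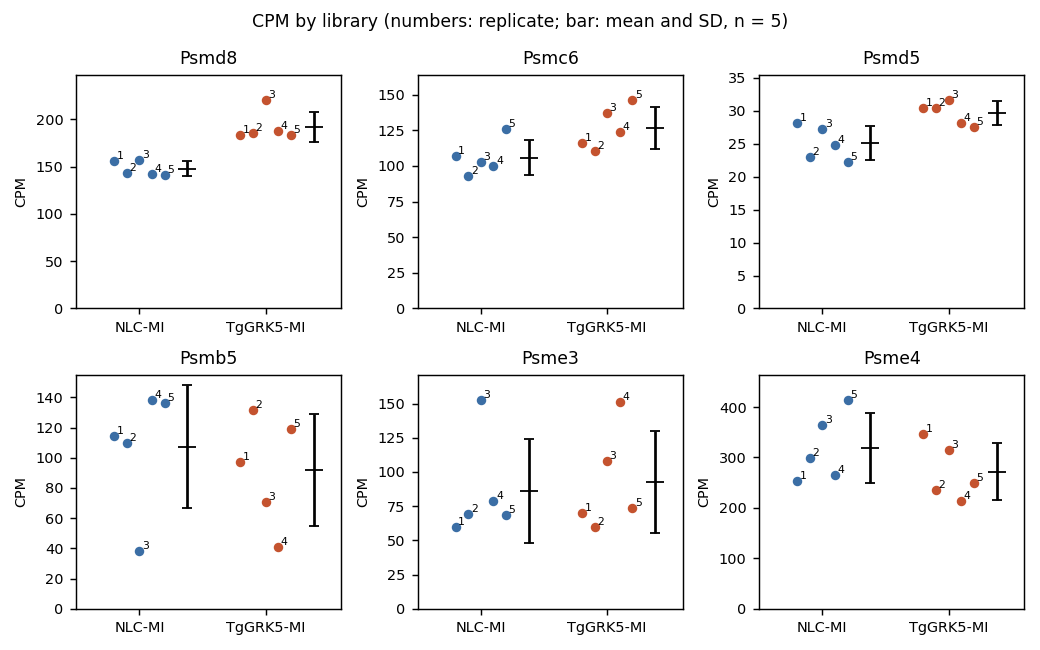
CPM of 6 proteasome genes by library, with the replicate number beside each point and the mean and SD (n = 5) at the right of each group. The groups are apart for Psmd8 alone, while for Psmb5 and Psme3 the libraries NLC-MI 3 and TgGRK5-MI 4 lie far from most of the others in both groups.

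None of the 6 ATPases of the 19S base had an unadjusted p under 0.05 in edgeR's test, and Psmc6 was the one whose change exceeded the spread between libraries. They had log2 fold changes from -0.05 (Psmc2) to 0.26 (Psmc6), and summed they reached 866.3 ± 120 CPM without the transgene and 906.1 ± 86.4 CPM with it (SD, n = 5). Psmc3, the most abundant of them per length, had a log2 fold change of 0.10 (95% interval -0.29 to 0.50). Of the 12 non-ATPases, 4 had a positive and 8 a negative log2 fold change. Psmd8 was thus at the far end of a set that otherwise ran from -0.19 to 0.13. At the other end was Psmd2, a large scaffold subunit of the base, with a log2 fold change of -0.19 (95% interval -0.62 to 0.25). Psmd14, the deubiquitinase of the lid, was at 64.5 ± 10.2 CPM and 63.9 ± 3.90 CPM (SD, n = 5), and the ubiquitin receptor Psmd4 at 113 ± 19.1 CPM and 120 ± 24.3 CPM. All 3 assembly chaperones of the 19S base, Psmd5, Psmd9 and Psmd10, had positive log2 fold changes, of 0.24, 0.19 and 0.23, and none had an unadjusted p under 0.05. Summed, they were at 59.56 ± 3.75 CPM (SD, n = 5) in controls and at 69.46 ± 6.04 CPM (SD, n = 5) in transgenic libraries, with overlapping ranges of 56.67 to 65.72 and 60.75 to 76.57 CPM.

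In the 20S core the structural subunits did not separate the groups. The alpha ring genes had log2 fold changes from -0.16 (Psma3) to 0.26 (Psma4), and 5 of 7 were positive. The value of Psma3 became 0.03 when it was summed with its near-identical copies. Psma6, the alpha subunit with the highest level per length, averaged 104 ± 24.6 CPM (SD, n = 5) in NLC-MI, beside 108 ± 24.6 CPM (SD, n = 5) in TgGRK5-MI. The beta ring genes ran from -0.22 (Psmb5) to 0.27 (Psmb2), again with 5 of 7 positive. Summed, the alpha ring was at 745.3 ± 85.1 and 789.9 ± 95 CPM and the beta ring at 933.6 ± 142 and 964.0 ± 138 CPM. None of these 14 genes had an unadjusted p under 0.05.

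Each catalytic site of the core can be filled by a constitutive or an inducible subunit, namely Psmb5 or Psmb8, Psmb6 or Psmb9, and Psmb7 or Psmb10. Psmb5 measured 114.7, 109.9, 38.2, 138.3 and 136.1 CPM in NLC-MI 1 to 5, and 97.4, 131.7, 70.6, 40.7 and 119.2 CPM in TgGRK5-MI 1 to 5. Its low values fell in NLC-MI 3, TgGRK5-MI 4 and TgGRK5-MI 3, the 3 libraries with the fewest counts, and it had the largest within-group spread of the 48 genes together with Psmb8 (pooled SD 0.73 for each, log2 scale). The log2 fold change of Psmb5 was -0.22 (SE 0.36, unadjusted p = 0.542 by edgeR) and in the 7 deepest libraries -0.11. Psmb6, the subunit with caspase-like activity, measured 131.8, 112.3, 114.4, 140.7 and 165.4 CPM in NLC-MI 1 to 5, and 131.0, 146.5, 150.9, 108.5 and 178.5 CPM in TgGRK5-MI 1 to 5. Psmb7, with trypsin-like activity, measured 188.6, 147.3, 150.7, 199.8 and 260.4 CPM in NLC-MI and 186.6, 199.5, 222.0, 154.2 and 254.8 CPM in TgGRK5-MI. For both genes the groups overlapped over nearly their whole range, with log2 fold changes of 0.11 and 0.10.

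Per exon length, each inducible subunit was lower than its constitutive partner in every library. Psmb8 measured 38.7, 30, 10.5, 18.3 and 22.4 CPM in NLC-MI 1 to 5, and 17.8, 40.3, 12, 13 and 29.4 CPM in TgGRK5-MI 1 to 5. Psmb9 measured 15.5, 11.7, 8.11, 7.08 and 9.49 CPM in NLC-MI, and 6.04, 15.5, 6.08, 8.62 and 10.7 CPM in TgGRK5-MI. Both genes were high in NLC-MI 1 and TgGRK5-MI 2, one library of each group. Psmb10 was at 63.4, 57.0, 40.4, 56.7 and 57.1 CPM in NLC-MI, and at 56.3, 69.1, 73.9, 42.3 and 71.5 CPM in TgGRK5-MI, with its lowest values in NLC-MI 3 and TgGRK5-MI 4. Log2 fold changes were -0.09 for Psmb8 (95% interval -0.94 to 0.76), -0.14 for Psmb9 (-0.80 to 0.51) and 0.19 for Psmb10 (-0.20 to 0.58). The sign of Psmb8 turned in the 7 deepest libraries (0.09).

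As a share of each pair per exon length, the inducible subunits did not differ between the groups beyond the spread of the libraries. Psmb8 made up 5.88% ± 2.01 of the Psmb5 and Psmb8 signal in NLC-MI and 6.09% ± 1.61 in TgGRK5-MI (SD, n = 5, exact permutation p = 0.825). Psmb9 made up 3.92% ± 1.38 of its pair in NLC-MI and 3.27% ± 1.28 in TgGRK5-MI (SD, n = 5, exact permutation p = 0.444). The share of Psmb10 was far larger, at 37.2% ± 5.03 and 38.1% ± 2.41 (SD, n = 5, exact permutation p = 0.746). All 3 p-values became 0.825 after Benjamini-Hochberg adjustment over the 3 pairs. The size of a share depends on the length used. With the longest protein-coding transcript in place of merged exons, the shares in NLC-MI and TgGRK5-MI were 11.4% and 11.8% for Psmb8, 4.49% and 3.75% for Psmb9, and 20.8% and 21.3% for Psmb10.

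Psmb8 and Psmb9, which leukocytes express strongly, were compared with the leukocyte markers over the libraries. Over the 10 libraries, the log2 level of Psmb8 and the mean log2 CPM of the 12 markers had Pearson's r = 0.556 (permutation p = 0.0949) and Spearman's rho = 0.709 (permutation p = 0.0257). For Psmb9, r was 0.536 (permutation p = 0.110) and rho 0.721 (permutation p = 0.0235). Adjusted over the 6 catalytic subunits, p was 0.329 for both values of r and 0.0771 for both values of rho, so none passed 0.05. Without TgGRK5-MI 2 and NLC-MI 5, the libraries farthest from the median of the markers, r was 0.785 and 0.676, and in the 7 deepest libraries it was 0.670 and 0.565. For Psmb10 r was 0.360, and for Psmb5, Psmb6 and Psmb7 it was 0.182, -0.172 and -0.263. Each group has 5 libraries, and no correlation was computed within a group. The summed CPM of 5 fibroblast markers was highest in TgGRK5-MI 2 (1.854e+04), NLC-MI 2 (1.815e+04) and NLC-MI 1 (1.773e+04). Psmb8 and Psmb9 were also highest in these libraries. The fibroblast sum was lowest in NLC-MI 5 (3059 CPM), where neither gene was lowest. No correlation with fibroblast markers was computed, so a relation to leukocytes in particular is not shown. The part of leukocyte or fibroblast RNA in the levels of Psmb8 and Psmb9 was not tested.

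**Figure D4:**
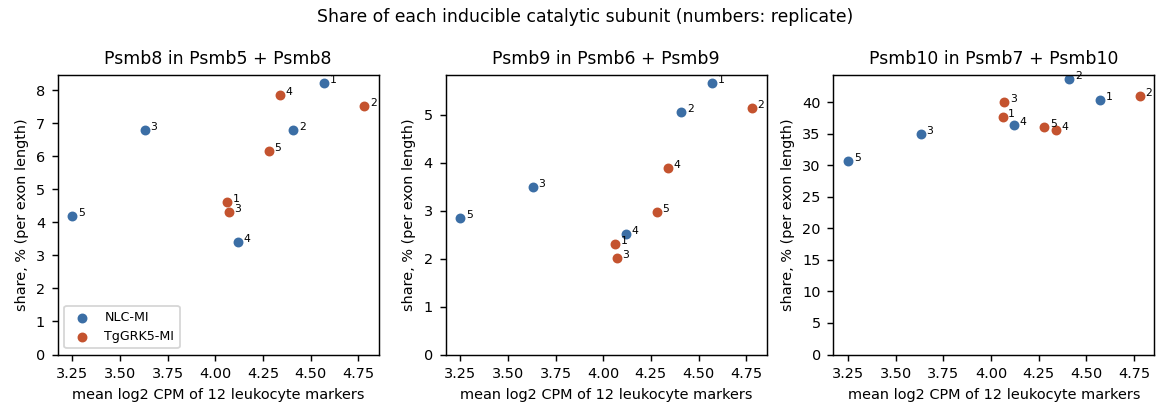
Share of each inducible catalytic subunit in its pair (vertical axes, %, per exon length) against the mean log2 CPM of 12 leukocyte markers (horizontal axes), with 1 point per library and its replicate number. The shares of the groups overlap. The range for Psmb10 is wider in NLC-MI (30.6% to 43.7%) than in TgGRK5-MI (35.5% to 41%). NLC-MI 1 and TgGRK5-MI 2 are high on both axes for Psmb8 and Psmb9.

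Promoter sequences are shown for Psmd8, the gene that differed most, and for Psmb5 and Psmb6, constitutive catalytic subunits whose promoters hold the letters of an antioxidant response element, to which the factors Nfe2l1 and Nfe2l2 are known to bind. Each run is the 250 bases before the RefSeq start on GRCm38.p6, 5′ to 3′ on the strand of the gene, at chr7:29180674-29180923 (minus), chr14:54617996-54618245 (minus) and chr11:70525107-70525356 (plus). Capitals mark the match, and Psmd8 has none.
Psmd8: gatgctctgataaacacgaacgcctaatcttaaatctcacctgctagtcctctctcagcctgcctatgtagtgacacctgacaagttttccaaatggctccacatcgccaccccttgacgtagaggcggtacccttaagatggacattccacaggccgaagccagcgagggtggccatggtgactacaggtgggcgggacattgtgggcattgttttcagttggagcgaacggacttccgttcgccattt
Psmb5: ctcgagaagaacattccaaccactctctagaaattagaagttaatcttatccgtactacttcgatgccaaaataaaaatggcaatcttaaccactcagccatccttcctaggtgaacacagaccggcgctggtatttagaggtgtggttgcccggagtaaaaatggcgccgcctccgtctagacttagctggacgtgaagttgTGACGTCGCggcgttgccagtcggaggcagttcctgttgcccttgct
Psmb6: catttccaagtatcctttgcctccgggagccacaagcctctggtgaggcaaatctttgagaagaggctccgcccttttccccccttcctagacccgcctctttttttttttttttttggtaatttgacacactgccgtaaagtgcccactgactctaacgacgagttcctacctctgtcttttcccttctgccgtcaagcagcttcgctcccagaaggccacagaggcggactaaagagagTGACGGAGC

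Of the 48 genes, 41 had a promoter window in the RefSeq table. The letters TGACNNNGC of an antioxidant response element, searched on both strands, occurred in 6 of the 41 (14.6%: Adrm1, Psmb5, Psmb6, Psmc6, Psmd12 and Psmd9), beside 11.5% of the 27025 genes with a window. The CCAAT box, read on both strands, occurred in 14 (34.1%), beside 37.5%. A match says only that the letters are there. Genes with and without the antioxidant letters had changes on both sides of 0, such as Psmc6 at 0.26 and Psmb5 at -0.22.

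The activators that can cap the core in place of the 19S regulator are also genes of the list. Psme1 and Psme2, which form the interferon-inducible PA28 cap, had log2 fold changes of 0.13 (SE 0.20) and -0.07 (SE 0.26). Psme1 measured 119.5, 113.3, 146.3, 98.3 and 181.0 CPM in NLC-MI 1 to 5, and 127.1, 124.2, 200.5, 152.3 and 115.9 CPM in TgGRK5-MI 1 to 5. Psme2 measured 72.3, 61.5, 34.5, 56.8 and 71.9 CPM in NLC-MI, and 47.6, 77.9, 44.2, 35.8 and 77.9 CPM in TgGRK5-MI. Both genes overlapped between the groups, and they were not highest in the same library, since Psme1 peaked in TgGRK5-MI 3 while Psme2 was among its lower values there. In the 7 deepest libraries both signs turned, to -0.07 for Psme1 and 0.04 for Psme2.

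Psme4, which encodes the cap PA200, was the regulator with the largest negative change. It measured 253.1, 298.2, 363.8, 264.7 and 414.2 CPM in NLC-MI 1 to 5, and 346.0, 234.7, 315.5, 213.6 and 248.6 CPM in TgGRK5-MI 1 to 5. The groups overlapped, with a log2 fold change of -0.23 (SE 0.19, unadjusted p = 0.256 by edgeR). Psme3, the nuclear activator PA28 gamma, measured 59.5, 69.2, 152.7, 78.7 and 68.9 CPM in NLC-MI, and 70.3, 59.7, 107.7, 151.1 and 73.6 CPM in TgGRK5-MI. Its high values fell in the 3 libraries with the fewest counts, opposite to Psmb5. The inhibitor Psmf1 was at 22.2 ± 2.99 and 22.8 ± 1.95 CPM (SD, n = 5).

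The 20S assembly factors differed little as well. Pomp, the maturation factor that is degraded as the first substrate of the new core, measured 104.1, 102.7, 103.9, 96.7 and 124.3 CPM in NLC-MI 1 to 5, and 98.1, 114.9, 111.3, 101.5 and 133.1 CPM in TgGRK5-MI 1 to 5. It was highest in replicate 5 of each group, with a log2 fold change of 0.07 (SE 0.13). Psmg1 and Psmg2, which pair as a chaperone of the alpha ring, had log2 fold changes of 0.18 and 0.23, and Psmg3 and Psmg4, which form the other pair, -0.24 and 0.09. None had an unadjusted p under 0.05. Psmg3 was also the least abundant of the 5 per length, and overlapped between groups at 8.77 to 12.6 CPM in NLC-MI and 5.82 to 13.2 CPM in TgGRK5-MI.

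The high and low values gathered in a few libraries of both groups. TgGRK5-MI 5 held the highest value of the 10 libraries for 13 of the 48 genes, TgGRK5-MI 3 for 12 and NLC-MI 5 for 10. NLC-MI 3 held the lowest value for 14 genes, NLC-MI 2 for 12 and TgGRK5-MI 4 for 8. The median deviation of the 48 genes from their mean over libraries ran from -0.16 in NLC-MI 2 to 0.21 in NLC-MI 5 on the log2 scale. NLC-MI 5 also had the highest summed cardiomyocyte markers, at 1.059e+05 CPM, and the lowest mean of leukocyte markers. The part of cell composition in these deviations was not tested.

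NLC-MI 3 and TgGRK5-MI 4, the libraries with the fewest counts and one from each group, stood apart together. For 16 of the 48 genes both lay below the other 8 libraries, a larger share than the 13.0% of all genes tested. For 3 of the 48 (Psmb1, Psma3 and Psme3) both lay above them, a smaller share than the 12.7% of all genes. The genes share these libraries, and the shares were not tested against each other. In mean log2 CPM, the largest negative differences between these 2 and the other 8 libraries were -1.51 for Psmb5 and -1.05 for Psmb8. Psmb4 (-0.90) and Psme2 (-0.83) came next, and the largest positive difference was 1.07 for Psme3. Psmb8 was not among the genes for which both lay below the other 8. Over the 48 genes the difference and the GC content of the transcripts had a Spearman's rho of -0.45, and over 15204 genes -0.38, given as a description across genes that share these libraries. The part of depth and base composition in the difference was not tested. In the 7 deepest libraries 1 proteasome gene, Psmd8, again had an unadjusted p under 0.05 in edgeR's test and was higher in TgGRK5-MI, none was lower, and the median log2 fold change was 0.08.

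**Figure D5:**
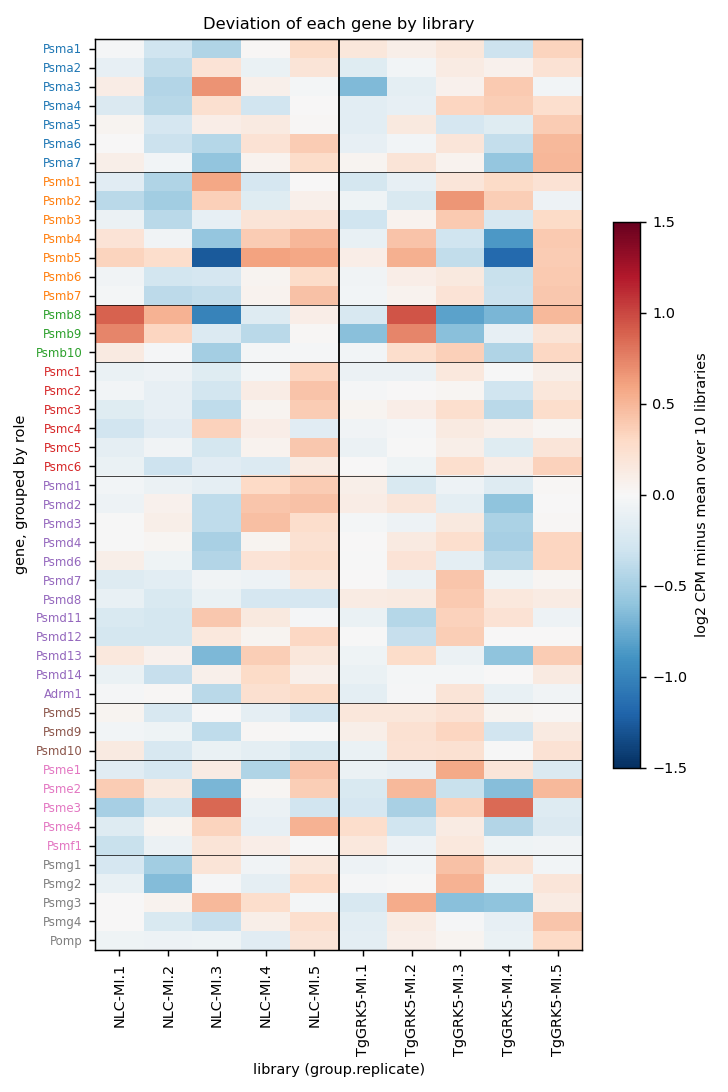
Deviation of each proteasome gene (rows, grouped by role) in each library (columns) from its mean over the 10 libraries, in log2 CPM, with the groups divided by a line. NLC-MI 3 and TgGRK5-MI 4 share low values of Psmb4, Psmb5 and Psme2 and high values of Psme3, and the row of Psmd8 changes colour at the line.

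Several proteasome genes share sequence with another annotated gene, and their counts carry that uncertainty. Psma3 and the processed pseudogene Gm13835 were identical over 665 bases. The counts given to Gm13835 ran from 0 in NLC-MI 3 and TgGRK5-MI 4 to 1067 in TgGRK5-MI 1, where they were 42.4% of the joint count. Adrm1, the ubiquitin receptor of the 19S base, is near-identical to Gm9774, which held up to 27.5% of the joint count, and Psme2b held up to 27.5% of its joint count with Psme2, in both cases in NLC-MI 3. Psmd1 shared 305 bases with Gm21972, which held 268, 330 and 230 counts in NLC-MI 3, TgGRK5-MI 3 and TgGRK5-MI 4 and at most 32 in the others. Summing each gene with its near-identical copies left 1 proteasome gene with an unadjusted p under 0.05 and the median log2 fold change at 0.06. Psma3 was the 1 gene whose sign turned with this sum, from -0.16 to 0.03. Some genes overlap exons of a gene on the opposite strand. The longest such overlap was that of Psmd9 with the noncoding gene Gm26745, over 1849 bases. Psmb8 overlaps exons of the antisense gene Gm20496 over 498 bases and Psmb7 those of Nek6 over 405. Among the shorter ones, Psmd13 overlaps exons of Sirt3 over 342 bases and Psmb9 those of Tap1 over 212. The strand setting of the counting is not given in the sources used here, so reads in these stretches cannot be assigned to 1 gene with certainty.

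Genes that work with the proteasome were tested as well. Of 19 partners, such as the receptors, shuttles and deubiquitinases that bind it, none had an unadjusted p under 0.05, and their median log2 fold change was -0.02. Nfe2l1, the factor that raises proteasome genes when the protease is inhibited, measured 409.3, 478.0, 426.4, 480.4 and 737.3 CPM in NLC-MI 1 to 5, and 500.7, 372.2, 481.5, 348.9 and 451.0 CPM in TgGRK5-MI 1 to 5. Its groups overlapped, with NLC-MI 5 far above the rest, and its log2 fold change was -0.23 (SE 0.20, unadjusted p = 0.263 by edgeR). The smallest p among the partners, 0.0615, was that of the antioxidant factor Nfe2l2, with a log2 fold change of 0.38 (95% interval -0.02 to 0.78), named here after its values were seen.

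None of 6 ubiquitin and E1 genes, 8 muscle ubiquitin ligases and 8 genes of peptide loading and interferon signalling had an unadjusted p under 0.05. Median log2 fold changes of these lists were 0.05, -0.06 and -0.09. Trim63, the ligase MuRF1, ranged from 132.7 to 288.0 CPM in NLC-MI and from 114.8 to 181.1 CPM in TgGRK5-MI, and Fbxo32, the F-box protein atrogin-1, from 80.0 to 218.0 CPM and from 70.9 to 152.3 CPM. NLC-MI 5 was the highest library for both. Their log2 fold changes were -0.17 (SE 0.24) and -0.24 (SE 0.30), within the spread of the libraries. Of the 6 cardiomyocyte markers, 3 had a positive and 3 a negative log2 fold change, with a median of 0.04. One, the calcium release channel Ryr2, was lower in TgGRK5-MI at an unadjusted p under 0.05, as were 2.08% of all genes. Its log2 fold change was -0.93 (unadjusted p = 0.00903 and adjusted p = 0.968 by edgeR's test, exact permutation p = 0.0476).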

How the data were processed

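RNA from isolated cardiomyocytes of 5 NLC-MI and 5 TgGRK5-MI mice was prepared with an Illumina TruSeq kit, per the labels. The authors deposited estimated counts per Ensembl gene as whole numbers, without normalization. The submitters' processing notes name Bowtie2, RSEM 1.2.31, DESeq2 and mm10, without their roles, and the strand setting and annotation version are not given in the sources used here. Totals were 7968779 to 23381527 counts. The floor of 3 counts covers counting error only.

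Counts were analysed in R 4.3.3 with edgeR 4.0.16 (TMM, filterByExpr by group, quasi-likelihood F test, legacy=FALSE, Benjamini-Hochberg adjustment over 15232 genes, threshold 0.10). CPM used TMM factors and log2 CPM a prior count of 2. Genes were named from GENCODE M21 (GRCm38), which held 51596 of 51789 identifiers. TPM was computed from the counts and merged exon lengths. Exact permutation tests were two-sided over libraries, and relations between measures used 100000 permutations. Copies were sought with blastn 2.17.0 (at least 95% identity over 200 bases). Alternatives were RLE, library size alone, DESeq2 1.42.0, limma-voom 3.58.1 with quality weights, other filters, a replicate block, a library size covariate and leaving out each library. The 7 deepest libraries and the sum of copies were added after seeing the data. Scripts were tested on simulated data.

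The 48 genes and all lists were chosen with earlier results of these data known. Values by library are given for genes with an unadjusted p under 0.05 or groups that do not overlap, for the catalytic pairs, and for Psme1, Psme2, Psme4 and Pomp. Other genes are given by ranges with 2 to 4 examples per role, partners where p was under 0.05, and Nfe2l1, Trim63 and Fbxo32 always. Psmc6, Psmd5 and Psme3 were chosen for values by library after they were seen. The results of 2 further promoter motifs are not reported here.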

Additional observations from a re-analysis of the deposited data

Results flagged for a closer look

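In 7 of 96 sets of 5 libraries (48 genes in 2 groups), 1 library lay farther from the rest than Dixon's 95% limit. For a single set, chance alone gives about 1 in 20. The sets share the same libraries and are not independent, so their number was not tested against that rate. NLC-MI 3 had 3 of these values. Psmb5 was at 38.2 CPM there, against 109.9 to 138.3 CPM in the other NLC-MI libraries. Psmd9 was at 17.3 CPM, against 21.6 to 22.8 CPM, and Psme3 at 152.7 CPM, against 59.5 to 78.7 CPM. NLC-MI 5 had 2 of them. Psmc1 was at 216.6 CPM, against 153.0 to 170.1 CPM, and Pomp at 124.3 CPM, against 96.7 to 104.1 CPM. TgGRK5-MI 3 had the other 2. Psmd7, a lid subunit of the 19S regulator, was at 175.5 CPM, against 123.5 to 133.4 CPM, and Psmd8 at 220.8 CPM, against 183.0 to 187.2 CPM. NLC-MI 3 is the library with the fewest counts and TgGRK5-MI 3 that with the third fewest. The part of depth in these values was not tested.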

How the results depend on the processing

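Psmd8 kept a positive change and an unadjusted p under 0.05 under every alternative of the edgeR, DESeq2 and limma-voom tests, with p from 0.000195 to 0.0282, adjusted p from 0.0629 to 1 and log2 fold changes of 0.31 to 0.40 when a library was left out. Of 351 recomputed values, 323 kept their direction and side of the threshold or moved by less than the spread. The number of proteasome genes higher at an unadjusted p under 0.05 was 2 with library size alone, 7 with limma-voom and 1 to 2 when a library was left out. It was 2 without NLC-MI 3 (Psma4 added) and without NLC-MI 5 (Psmc6 added). DESeq2 gave 1 proteasome gene an adjusted p under 0.10. Over all genes the number with an adjusted p under 0.10 was 12 in edgeR, 69 in DESeq2, 50 in limma-voom, 20 with log2 library size as a covariate, 6 in the 7 deepest libraries and 3 to 10 when a library was left out. The cause was not tested, except that leaving out libraries leaves fewer samples.

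Of the 48 genes, 25 changed sign under at least 1 of 20 alternatives, with log2 fold changes in the comparison as reported from -0.24 (Psmg3) to 0.13 (Psme1), and 23, Psmd8 among them, did not. Psma3 went from -0.16 to 0.03 when copies were summed. Each range given below covers only the fits that left out 1 library. Psmb8 went to 0.01 with the library size covariate, to 0.09 in the 7 deepest libraries, and to 0.13, 0.06 and 0.05 without NLC-MI 1, TgGRK5-MI 3 and TgGRK5-MI 4, within a range of -0.41 to 0.13. Psmb9 went to 0.03 without NLC-MI 1 (range -0.41 to 0.03). Psme1 went to -0.07 in the 7 deepest libraries and -0.03 without TgGRK5-MI 3 (range -0.03 to 0.26). Psme2 went to 0.04 in the 7 deepest libraries, to 0.06 without TgGRK5-MI 4, and to 0.00 without NLC-MI 5 or TgGRK5-MI 3 (range -0.21 to 0.06).

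With the replicate number as a block, 8 genes had an adjusted p under 0.10 and 1 proteasome gene, Psmd8, an unadjusted p under 0.05. In that edgeR fit its log2 fold change was 0.37, with an unadjusted p of 0.0244 and an adjusted p of 1, and no other call on the proteasome genes changed with the block. Same-numbered libraries had correlations of deviations of 0.0717, 0.662, 0.381, -0.341 and 0.0848, and 2 libraries correlated best with their own number, so the numbers were not taken as a pairing.

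The intervals rest on 5 libraries per group, and the part of depth in their width was not tested. RNA levels say nothing here of protein or of protease activity. Leukocyte markers other than Cd3e, which had 0 to 4 counts, were found in both groups, and no sham-operated libraries were analysed here, so the values describe 2 infarcted groups alone.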
